A study of Homo sapiens with 24 samples.

Results

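The genes described here are 10 feedback inhibitors and output genes of the MAPK pathway, DUSP4, DUSP5, DUSP6, SPRY2, SPRY4, SPRED1, SPRED2, ETV4, ETV5 and PHLDA1, taken by symbol from 57820 genes counted in each library. They were measured by RNA-seq in SAS and Cal33, established squamous carcinoma lines of the tongue, labelled as wild type. Each line received 4 treatments: sham, GSK-J1 at 4.5 µM, a single X-ray dose of 4 Gy, and GSK-J1 plus 4 Gy, with 3 replicates per treatment, 24 libraries in all, and RNA taken 24 h after treatment. GSK-J1 inhibits the histone demethylases KDM6A (UTX) and KDM6B (JMJD3), and the study asked how it changes the radiation response of HNSCC (squamous carcinoma of the head and neck). Control cells, called sham in the labels, received the solvent DMSO by the study's account, and nothing states that replicates were separate cultures, so p-values measure the spread between these samples.

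The MAPK pathway carries signals from receptor tyrosine kinases through RAS, RAF and MEK to the kinase ERK, which enters the nucleus and switches on target genes. Among these targets are inhibitors of the pathway itself: DUSP phosphatases strip the activating phosphates from ERK, while Sprouty (SPRY) and SPRED proteins act further up, at the receptors and at the step from RAS to RAF. ETV4, ETV5 and PHLDA1 are used together with them as readouts of ERK output, and in squamous carcinomas the pathway is commonly driven by the EGF receptor.

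Libraries held 54200036 to 96848227 counts, and the 10 genes were counted in all of them, at no fewer than 335 counts in SAS and 180 in Cal33. The squamous markers KRT5, KRT14, KRT17, TP63, SFN, CDH1 and DSG3 were present in every library. Their summed level was 2860 to 4090 CPM (counts scaled to a common library size) in SAS and 6270 to 9510 CPM in Cal33. For the markers in this paragraph, CPM are scaled by the total count of a library alone. Elsewhere the scaling also uses TMM factors. Of 13 markers of fibroblasts, leukocytes, endothelium and melanocytes, 4 exceeded 1 CPM in any library (COL1A1, CDH5, VWF and PMEL), MLANA was at 0 in every Cal33 library, and the sum of the 13 was 11.1 to 97.9 CPM in SAS and 52.9 to 92.2 CPM in Cal33, with overlapping ranges between treatments in SAS. In Cal33 the sum was 79.0 to 92.2 CPM in sham, 58.8 to 88.0 under GSK-J1, 57.8 to 67.0 after 4 Gy and 52.9 to 68.4 after both, so that sham libraries lay above irradiated ones, and its part in the results was not tested. Among SAS libraries 2 stood apart. GSK-J1 replicate 1 and GSK-J1 plus 4 Gy replicate 1 held 11 transcripts of Cal33 cells at 1.43 and 0.767% of their Cal33 level, against at most 0.00327% in the other 10, and the calls in SAS that involve these libraries are also given with both left out.

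RefSeq promoter sequences (GRCh38.p14, the 250 bases before a transcription start) were at hand for 6 of the 10 genes, at 9 starts: DUSP6, SPRY2, SPRY4, SPRED1, SPRED2 and PHLDA1. Both strands were searched for the ETS letters CCGGAA, for the AP-1 letters TGACTCA and for the CRE letters TGACGTCA, none of which contains another. Printed here, 5′ to 3′ on the strand of the gene, are SPRY4, DUSP6 and the outermost start of SPRY2, the 3 of these genes whose levels differed most between the lines, and PHLDA1, with ETS letters in capitals. SPRY4 and DUSP6 hold none of the 3 motifs as spelled here. The shorter letters GGAA, which occur in both, were not searched for, so this does not show that ETS sites are absent. The positions are chr5:142324248-142324497 for SPRY4, chr12:89352502-89352751 for DUSP6, chr13:80341127-80341376 for SPRY2 and chr12:76031777-76032026 for PHLDA1, all on the minus strand.
SPRY4: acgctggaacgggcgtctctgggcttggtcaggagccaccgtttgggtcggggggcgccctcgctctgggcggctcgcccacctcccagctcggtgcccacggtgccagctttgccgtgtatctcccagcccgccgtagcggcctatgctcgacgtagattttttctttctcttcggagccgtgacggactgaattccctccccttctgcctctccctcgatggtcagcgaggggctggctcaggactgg
DUSP6: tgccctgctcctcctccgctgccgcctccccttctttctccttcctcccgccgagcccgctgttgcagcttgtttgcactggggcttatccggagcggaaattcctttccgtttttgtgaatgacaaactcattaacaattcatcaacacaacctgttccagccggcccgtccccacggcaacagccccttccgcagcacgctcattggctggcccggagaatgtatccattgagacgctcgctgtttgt
SPRY2: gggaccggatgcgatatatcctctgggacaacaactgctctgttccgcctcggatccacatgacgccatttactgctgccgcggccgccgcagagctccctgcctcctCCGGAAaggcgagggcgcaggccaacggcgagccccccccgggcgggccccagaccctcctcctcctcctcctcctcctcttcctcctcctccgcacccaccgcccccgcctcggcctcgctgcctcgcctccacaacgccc
PHLDA1: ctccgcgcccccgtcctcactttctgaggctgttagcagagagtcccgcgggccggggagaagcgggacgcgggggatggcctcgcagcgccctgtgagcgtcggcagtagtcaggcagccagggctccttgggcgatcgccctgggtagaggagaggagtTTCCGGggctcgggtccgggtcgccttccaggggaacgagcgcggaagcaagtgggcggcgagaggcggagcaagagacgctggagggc

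The ETS letters start 142 bases before the start in SPRY2 and lie on the opposite strand, with their first letter as printed 89 bases before the start, in PHLDA1. These were the 2 of the 9 windows with CCGGAA, which 14.5% of all 35116 promoters in the table hold. TGACTCA, held by 4.2% of them, and TGACGTCA, held by 1.65%, occurred in 0 of the 9 windows. A match describes letters only and is not a measured binding site.

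In sham cells all 10 genes had lower means in Cal33 than in SAS, and 7 passed the test, all lower in Cal33: DUSP5, DUSP6, SPRY2, SPRY4, SPRED1, ETV4 and ETV5 (edgeR's quasi-likelihood test on all 24 libraries, Benjamini-Hochberg adjusted p under 0.05). Calls were common in this contrast, since 27.2% of the 24597 genes tested were called lower in Cal33 and another 27.2% higher. The median log2 difference was -0.89 over the 10 genes and 0.02 over all genes. With 1 line of each kind, this contrast compares these lines and not classes of tumour.

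SPRY4, a Sprouty inhibitor of receptor tyrosine kinase signalling, differed most. Per kb of exon, it had 4.85, 2.24 and 3.64 CPM in the 3 SAS sham libraries and 0.426, 0.487 and 0.529 CPM in the 3 of Cal33, 7.43-fold lower (log2 difference -2.89 ± 0.36 SE, adjusted p = 5.38e-07). DUSP6, a cytoplasmic ERK phosphatase, had 45.4, 17.6 and 22.5 CPM per kb in SAS and 4.99, 3.27 and 8.51 in Cal33, 5.08-fold lower (adjusted p = 0.000134). For DUSP5, a nuclear ERK phosphatase, the values were 57.3, 42.0 and 60.9 CPM per kb in SAS and 11.3, 12.1 and 15.9 in Cal33, 4.08-fold lower (adjusted p = 3.59e-06). For these 3 genes every SAS library lay above every Cal33 library, with DUSP6 the most scattered of the 3.

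SPRY2, ETV4, ETV5 and SPRED1 differed less. SPRY2, another Sprouty, was 2.56-fold lower in Cal33 (adjusted p = 2.15e-06), and the ETS transcription factors ETV4 and ETV5 were 1.88-fold and 1.83-fold lower (adjusted p = 0.00434 and 1.91e-07). SPRED1, an inhibitor of RAS-dependent RAF activation, was 1.63-fold lower (adjusted p = 2.52e-05). The groups did not overlap for any of these 4. DUSP4, SPRED2 and PHLDA1 did not pass, and of these DUSP4 and PHLDA1 overlapped between the lines. DUSP4, SPRED2 and PHLDA1 had log2 differences of -0.82 ± 0.39, -0.19 ± 0.08 and -0.57 ± 0.27 SE (adjusted p = 0.0826, 0.052 and 0.0766).

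Ordered by level per length, the SAS sham cells had DUSP5 first at 53.4 ± 10.0 CPM per kb (SD, n = 3), followed by DUSP6 at 28.5 ± 14.8 and PHLDA1 at 28.3 ± 8.33, which overlapped from neighbour to neighbour. ETV4 at 16.7 ± 1.31 and SPRED2 at 15.1 ± 1.10 lay below them, ETV5 stood alone at 5.15 ± 0.142, and SPRY2, SPRY4, SPRED1 and DUSP4 closed the order at 3.61 ± 0.632, 3.58 ± 1.31, 2.54 ± 0.294 and 1.55 ± 0.948 CPM per kb, each overlapping the next. Cal33 sham cells had another order. PHLDA1 led at 19.1 ± 6.95 CPM per kb, SPRED2 came next at 13.2 ± 0.369 and was followed by DUSP5 at 13.1 ± 2.46, ETV4 at 8.87 ± 2.87 and DUSP6 at 5.59 ± 2.67, each overlapping the next. ETV5 at 2.81 ± 0.139 stood apart from its neighbours, SPRED1 and SPRY2 at 1.56 ± 0.118 and 1.41 ± 0.152 overlapped, and DUSP4 at 0.875 ± 0.323 and SPRY4 at 0.481 ± 0.0515 closed the order without overlap. SPRED2, a relative of SPRED1, had the smallest SD for its level within Cal33.

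**Figure D1:**
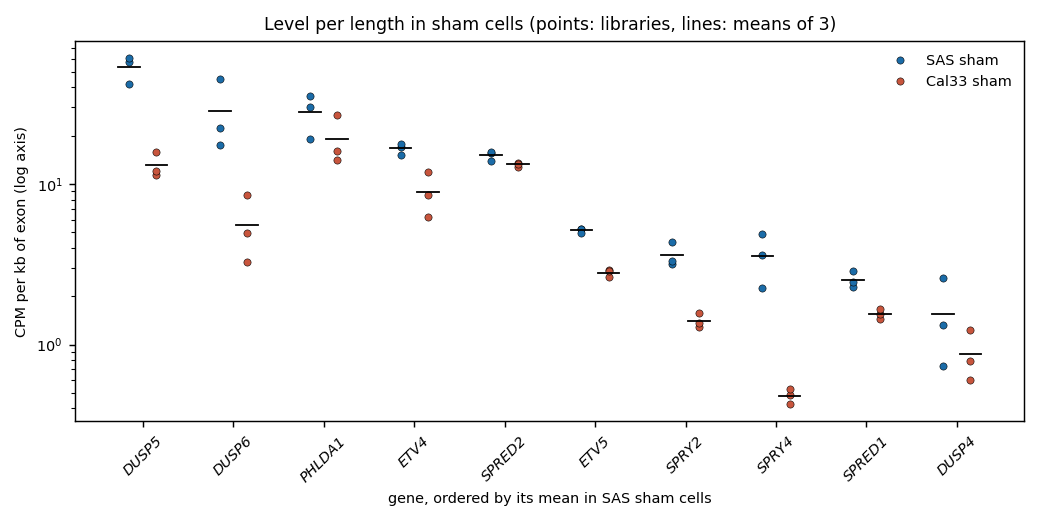
Level per length of the 10 genes in sham cells, in CPM per kb of exon on a log axis (points: the 3 libraries of a line, short lines: their mean). SAS points lie above all Cal33 points for 8 of the genes, with the widest gap for SPRY4, and DUSP4 and PHLDA1 overlap.

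Genes of the cascade that leads to ERK differed in both directions. In a list of 17 such genes, 3 were called higher and 5 lower in Cal33 sham cells, with a median of -0.08. Of all genes 27.2% were called in each direction, so these counts do not set the list apart. NRAS, a RAS gene, had 39.2 ± 4.59 CPM in Cal33 sham and 82.0 ± 11.8 CPM in SAS sham (log2 difference -1.06 ± 0.11, adjusted p = 2.23e-08), and BRAF, a kinase that activates MEK, had 15.4 ± 1.65 and 32.4 ± 4.05 CPM (-1.08 ± 0.12, adjusted p = 6.81e-08). Whether the level of these genes bears on the 10 genes was not tested.

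Of 14 genes listed as other inhibitors of the pathway, 6 were lower and 2 higher in Cal33 (median -0.41). For this list and the next, the share of all genes called was 27.2% in each direction. The list includes phosphatases of stress-activated kinases, such as DUSP10. DUSP2, a nuclear phosphatase, was close to absent in Cal33 at 0.0253 ± 0.00436 CPM against 34.6 ± 7.56 CPM in SAS, and DUSP10 and DUSP7 were lower by log2 differences of -2.59 ± 0.32, adjusted p = 6.11e-07, and -1.46 ± 0.19, adjusted p = 8.93e-07. SPRY3, which is listed under more than 1 gene entry with the best counted one used, was higher (3.02 ± 0.20, adjusted p = 3.12e-11). Of 12 other ERK output genes, 7 were lower and 1 higher (median -1.04), including the transcription factors FOSL1 (-2.28 ± 0.38, adjusted p = 2.60e-05), MYC (-1.80 ± 0.23, adjusted p = 9.50e-07) and ETV1 (-4.72 ± 0.37, adjusted p = 4.93e-10) and the survival factor MCL1 (-0.78 ± 0.14, adjusted p = 6.07e-05). ETV1 was low in both lines, at 0.066 ± 0.028 CPM in Cal33 sham and 1.66 ± 0.363 CPM in SAS sham, scaled within each line.

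Irradiation raised part of the set in both lines. In Cal33 cells, 4 of the 10 genes, DUSP4, DUSP5, SPRY4 and ETV5, rose after 4 Gy, and these 4 also rose when 4 Gy was given with GSK-J1, by 1.39- to 2.94-fold over both comparisons. These calls depended on single libraries, as did the number of calls over all genes. With 1 library left out at a time, 1 to 3 of the 10 were called after 4 Gy, with DUSP4 called each time and alone without 4 Gy replicate 1 or 3 or sham replicate 1. Over all genes 427 to 1210 were then called, against 1528 with all libraries. With GSK-J1 in both arms 0 to 4 were called, with 0 without GSK-J1 replicate 2 and DUSP4 alone without GSK-J1 plus 4 Gy replicate 3. Over all genes these were 254 to 1342, against 1245 with all libraries. In SAS cells, ETV4 and ETV5 rose after 4 Gy alone, and 0 of the 10 passed edgeR's test when 4 Gy was given with GSK-J1, where 2 (DUSP4 and ETV5) had an unadjusted p under 0.05 and DESeq2 called 1 (ETV5). After 4 Gy alone, 0 of the 10 were called in SAS without 4 Gy replicate 1 or 3, and the ETV4 call was lost without any 1 of the sham libraries. Over all genes, leaving out 1 library gave 587 to 1880 calls in that comparison, against 1658 with all libraries. Of all genes tested in Cal33, 3.47% were called higher and 2.81% lower after 4 Gy, and 3.04% and 2.07% with GSK-J1 in both arms. In SAS these shares were 3.63% and 3.45% after 4 Gy, and 2.43% and 1.99% with GSK-J1 in both arms.

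None of the 10 genes was called lower in any of these comparisons. The median log2 fold change of the 10 was 0.62 and 0.67 in Cal33 and 0.38 and 0.26 in SAS, without and with GSK-J1, against 0.01, 0.02, -0.02 and 0.00 for all genes. Groups did not overlap, with irradiation higher, for 8 genes in Cal33 after 4 Gy, where 13.4% of all genes did so, and for 7 with GSK-J1, where 13.2% did so. In SAS these were 4 genes, beside 13% of all genes, and 2 genes, beside 14%. The comparisons without and with GSK-J1 use different libraries but share the estimate of spread of a line. The 10 genes were chosen with earlier results of these data known, so their values beside those of all genes are a description.

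The replicate numbers of SAS pair the libraries (their deviations from the group means go together in every pair of groups), and with the number as a block more genes passed. After 4 Gy these were 6 of 10, where 11.3% of all genes were called higher: DUSP4 (log2 fold change 1.68, adjusted p = 2.17e-05), SPRY4 (0.76, 0.000611), DUSP6 (0.60, 0.00643) and SPRY2 (0.26, 0.0496) joined ETV4 and ETV5. With GSK-J1 in both arms 5 of 10 passed, where 10.4% of all genes were called higher: DUSP4 (1.40, 0.000102), SPRY4 (0.60, 0.00352), DUSP6 (0.46, 0.029), ETV4 (0.26, 0.00955) and ETV5 (0.35, 0.0135). With the 2 libraries that carry Cal33 transcripts left out, the block gave 5 of 10 after 4 Gy (SPRY2 was lost) and 4 with GSK-J1 (DUSP4, DUSP6, SPRY2 and SPRY4), and the fit without a block 1 (ETV5) and 0. No share of all genes stands beside these last counts, and that share differs between fits. They therefore do not describe the members alone. In Cal33 the numbers of the sham libraries do not pair with the others, but those of the remaining groups do. With the number as a block in a fit of the 6 Cal33 libraries compared, GSK-J1 plus 4 Gy against GSK-J1 had 6 of the 10 called, where 10% of all genes were called higher, as DUSP6 (1.07, adjusted p = 3.17e-06) and PHLDA1 (0.83, 9.03e-06) joined the 4.

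**Figure D2:**
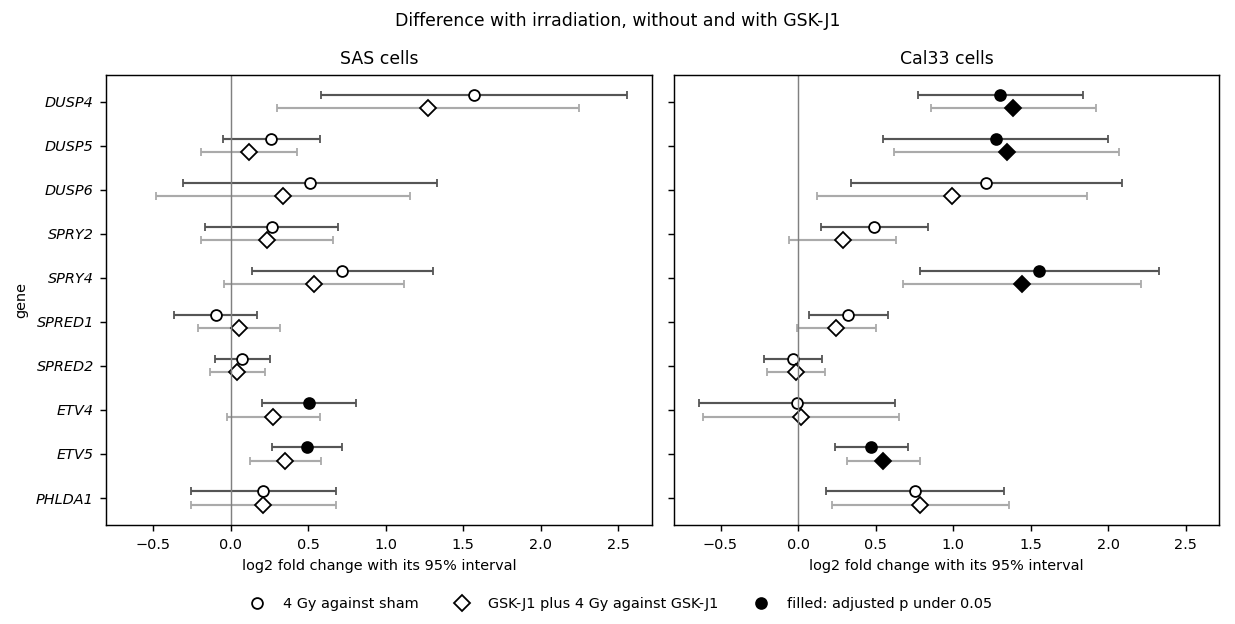
Log2 fold change with irradiation for the 10 genes in SAS and Cal33, with 95% intervals (circles: 4 Gy against sham, diamonds: GSK-J1 plus 4 Gy against GSK-J1, filled: adjusted p under 0.05, no block). In Cal33 the filled symbols are DUSP4, DUSP5, SPRY4 and ETV5 in both comparisons, and in SAS ETV4 and ETV5 after 4 Gy alone.

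DUSP4 (ENSG00000120875.4, chr8:29190581-29208185, minus strand, 7257 exonic bases), a nuclear phosphatase of ERK and related kinases, had the largest log2 fold change of the set in SAS, where it did not pass without the block, and rose in Cal33. In Cal33 it had 4.56, 6.12 and 9.35 CPM in the sham libraries (replicates 1, 2 and 3) and 15.1, 17.8 and 16.7 CPM after 4 Gy, a log2 fold change of 1.31 ± 0.25 SE (adjusted p = 0.0106, gene positions here and for the other members being those of hs37d5). With GSK-J1 it had 7.83, 5.01 and 5.72 CPM without and 14.2, 15.2 and 19.3 CPM with irradiation (1.39 ± 0.25, adjusted p = 0.00913). Every irradiated Cal33 library lay above every unirradiated one.

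In SAS, DUSP4 had 9.01, 5.06 and 17.9 CPM in sham, and after 4 Gy 35.4, 20.9 and 39.1 CPM, a log2 fold change of 1.57 ± 0.46 (adjusted p = 0.0558, and 0.0159 without sham replicate 3). With GSK-J1 the values were 11.5, 6.92 and 22.3 CPM without and 36.4, 23.3 and 38.7 CPM with irradiation (1.27 ± 0.45, adjusted p = 0.127). Replicate 2 was lowest and replicate 3 highest in all 4 SAS groups, and the irradiated library exceeded the unirradiated one of the same number in all 6 pairs. Irradiated and unirradiated groups did not overlap in either comparison.

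DUSP5 (ENSG00000138166.5, chr10:112257596-112271302, plus strand, 2615 exonic bases) rose in Cal33. It had 30.9, 33.6 and 43.5 CPM in sham and 131, 54.8 and 75.7 CPM after 4 Gy, a log2 fold change of 1.27 ± 0.34 (adjusted p = 0.0423). Under GSK-J1 it had 42.3, 36.8 and 32.2 CPM without and 146, 57.8 and 79.2 CPM with irradiation (1.34 ± 0.34, adjusted p = 0.0384). The first replicate of both irradiated groups was far above the other two, which still exceeded all unirradiated libraries.

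In SAS cells DUSP5 was not called, and the difference between the lines in its response to 4 Gy did not pass (1.00 ± 0.39, adjusted p = 0.36). Sham libraries had 142, 104 and 151 CPM and 4 Gy libraries 155, 159.9 and 161 CPM, a log2 fold change of 0.26 ± 0.14 (95% interval -0.05 to 0.57, adjusted p = 0.295). With GSK-J1 the values were 169, 118 and 168 CPM without and 165, 164 and 166 CPM with irradiation (0.12 ± 0.14, adjusted p = 0.684). Groups did not overlap after 4 Gy alone and did so with GSK-J1. Replicate 2 was the lowest unirradiated library in both comparisons, while the irradiated libraries lay close together.

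DUSP6 (ENSG00000139318.7, chr12:89741009-89747048, minus strand, 4632 exonic bases) varied widely between replicates and did not pass the test without the block in either line. Cal33 sham libraries had 24.1, 16.2 and 41.2 CPM and 4 Gy libraries 84.5, 49.9 and 54.8 CPM, a log2 fold change of 1.21 ± 0.40 (adjusted p = 0.0955). Under GSK-J1 it had 45.6, 33.3 and 15.2 CPM without and 88.2, 47.0 and 52.3 CPM with irradiation (0.99 ± 0.40, adjusted p = 0.175). Irradiated and unirradiated Cal33 groups did not overlap, but the lowest irradiated and the highest unirradiated library were close.

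Its SAS values were 198, 77.0 and 98.9 CPM in sham and 231, 137 and 165 CPM after 4 Gy (0.51 ± 0.38, adjusted p = 0.453). With GSK-J1 they were 237, 92.1 and 103 CPM without and 222, 154 and 172 CPM with irradiation (0.34 ± 0.38, adjusted p = 0.66). Replicate 1 was highest and replicate 2 lowest in all 4 groups, and the groups overlapped in both comparisons. Within pairs of the same number, DUSP6 was higher with irradiation in 5 of 6, the exception being replicate 1 under GSK-J1, where both libraries are those that hold Cal33 transcripts.

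SPRY4 (ENSG00000187678.8, chr5:141689992-141706020, minus strand, 5930 exonic bases) showed the largest fold change of the set in Cal33. Sham libraries had 2.64, 3.08 and 3.28 CPM and 4 Gy libraries 13.1, 6.26 and 7.14 CPM, 2.94-fold higher (log2 1.56 ± 0.36, adjusted p = 0.0256). Under GSK-J1 it had 4.27, 2.56 and 2.5 CPM without and 12.9, 5.19 and 7.34 CPM with irradiation (1.44 ± 0.36, adjusted p = 0.0363). The groups did not overlap, and replicate 1 was highest in both irradiated groups by a wide margin, as for DUSP5.

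In SAS cells SPRY4 started from a higher level. It had 27.2, 12.6 and 20.5 CPM in sham and 37.0, 26.1 and 36.1 CPM after 4 Gy (0.72 ± 0.27, adjusted p = 0.126). With GSK-J1 it had 30.6, 15.1 and 24.2 CPM without and 37.0, 30.5 and 34.1 CPM with irradiation (0.54 ± 0.27, adjusted p = 0.273). Replicate 2 was lowest in every group and the groups overlapped in both comparisons, while the irradiated library was higher in all 6 pairs of the same number.

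SPRY2 (ENSG00000136158.6, chr13:80910111-80915086, minus strand, 3289 exonic bases) was not called without the block in either line. In Cal33 it had 5.41, 4.50 and 4.71 CPM in sham and 7.04, 6.42 and 7.13 CPM after 4 Gy (0.49 ± 0.16, adjusted p = 0.0869). The log2 fold change was 0.29 ± 0.16 with GSK-J1 in Cal33, 0.26 ± 0.20 in SAS and 0.23 ± 0.20 in SAS with GSK-J1 (adjusted p = 0.323, 0.455 and 0.538). The Cal33 sham and 4 Gy groups did not overlap, and the groups of the other 3 comparisons did.

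Neither SPRED gene was called. SPRED1 (ENSG00000166068.8, chr15:38544527-38649450, plus strand, 8260 exonic bases) had 12.4, 13.7 and 14.5 CPM in Cal33 sham and 16.7, 17.1 and 17.1 CPM after 4 Gy, a shift without overlap that did not pass (0.32 ± 0.12, adjusted p = 0.123). With GSK-J1 in both Cal33 arms, again without overlap, it differed by 0.25 ± 0.12 (adjusted p = 0.249), and in SAS by -0.10 ± 0.12 without and 0.05 ± 0.12 with GSK-J1 (adjusted p = 0.687 and 0.851). SPRED2 (ENSG00000198369.5, chr2:65537985-65659771, minus strand, 5154 exonic bases) ranged from 67.3 to 84.2 CPM over the SAS libraries and from 68.5 to 74.3 CPM over those of Cal33. Its 95% intervals for irradiation, -0.10 to 0.25 and -0.14 to 0.22 in SAS and -0.22 to 0.16 and -0.20 to 0.18 in Cal33 on the log2 scale, were the narrowest of the set.

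ETV5 (ENSG00000244405.3, chr3:185764097-185828107, minus strand, 5802 exonic bases), an ETS factor of the PEA3 group, was called in both lines without the block. Cal33 sham libraries had 16.0, 18.1 and 17.3 CPM and 4 Gy libraries 23.0, 25.0 and 23.3 CPM, 1.39-fold higher (log2 0.47 ± 0.11, adjusted p = 0.0268). Under GSK-J1 it had 17.7, 16.9 and 19.7 CPM without and 26.5, 25.8 and 27.1 CPM with irradiation (0.55 ± 0.11, adjusted p = 0.0152). No irradiated library overlapped an unirradiated one, and replicates lay close together. ETV5 overlaps ETV5-AS1 on the opposite strand and DGKG on its own, and SPRED2 overlaps AC012370.2 on its own strand, so reads in the shared parts are uncertain.

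In SAS, ETV5 had 28.6, 28.7 and 27.5 CPM in sham and 42.9, 35.0 and 41.4 CPM after 4 Gy, 1.41-fold higher (log2 0.49 ± 0.11, adjusted p = 0.0158). With GSK-J1 it had 34.7, 39.0 and 31.6 CPM without and 49.2, 40.1 and 45.2 CPM with irradiation (0.35 ± 0.10, adjusted p = 0.0772), and with the 2 libraries that carry Cal33 transcripts left out the latter log2 fold change was 0.27 (adjusted p = 0.386). Groups did not overlap in either comparison.

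ETV4 (ENSG00000175832.8, chr17:41605212-41656988, minus strand, 3607 exonic bases), its close relative, was called in SAS only, and the difference between the lines in this effect did not pass (-0.53 ± 0.36, adjusted p = 0.685). SAS sham libraries had 58.0, 51.9 and 60.8 CPM and 4 Gy libraries 84.6, 67.3 and 90.7 CPM (log2 0.51 ± 0.14, adjusted p = 0.0461), while with GSK-J1 it had 65.0, 60.3 and 72.7 and 83.4, 64.0 and 92.4 CPM (0.28 ± 0.14, adjusted p = 0.281). The SAS call was close to the threshold, and with the 2 libraries that carry Cal33 transcripts left out (they enter this fit through the spread), its adjusted p was 0.0744. In Cal33 it had 32.0, 23.9 and 44.9 CPM in sham and 46.5, 26.8 and 26.9 CPM after 4 Gy (-0.01 ± 0.29, 95% interval -0.64 to 0.62), and the groups overlapped. ETV4 overlaps DHX8 on the opposite strand, and its counts without regard to strand were 95 to 97.6% of the stranded counts used here.

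PHLDA1 (ENSG00000139289.9, chr12:76419227-76427712, minus strand, 8069 exonic bases), a protein with a pleckstrin homology-like domain whose transcript follows ERK activity, was the most abundant member per length in Cal33 sham cells. Cal33 sham libraries had 136, 122 and 228 CPM and 4 Gy libraries 344, 245 and 231 CPM (0.75 ± 0.26, adjusted p = 0.111), and under GSK-J1 214, 149 and 116 and 330.3, 243 and 255 CPM (0.79 ± 0.26, adjusted p = 0.104). Groups did not overlap in either comparison, but sham replicate 3 came within a few CPM of the lowest irradiated library. In SAS the log2 fold changes were 0.21 ± 0.22 and 0.21 ± 0.22 (adjusted p = 0.607 and 0.629), and the groups overlapped. Genes on the opposite strand overlap PHLDA1, and counting without regard to strand kept 65.4 to 77.6% of its stranded counts.

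**Figure D3:**
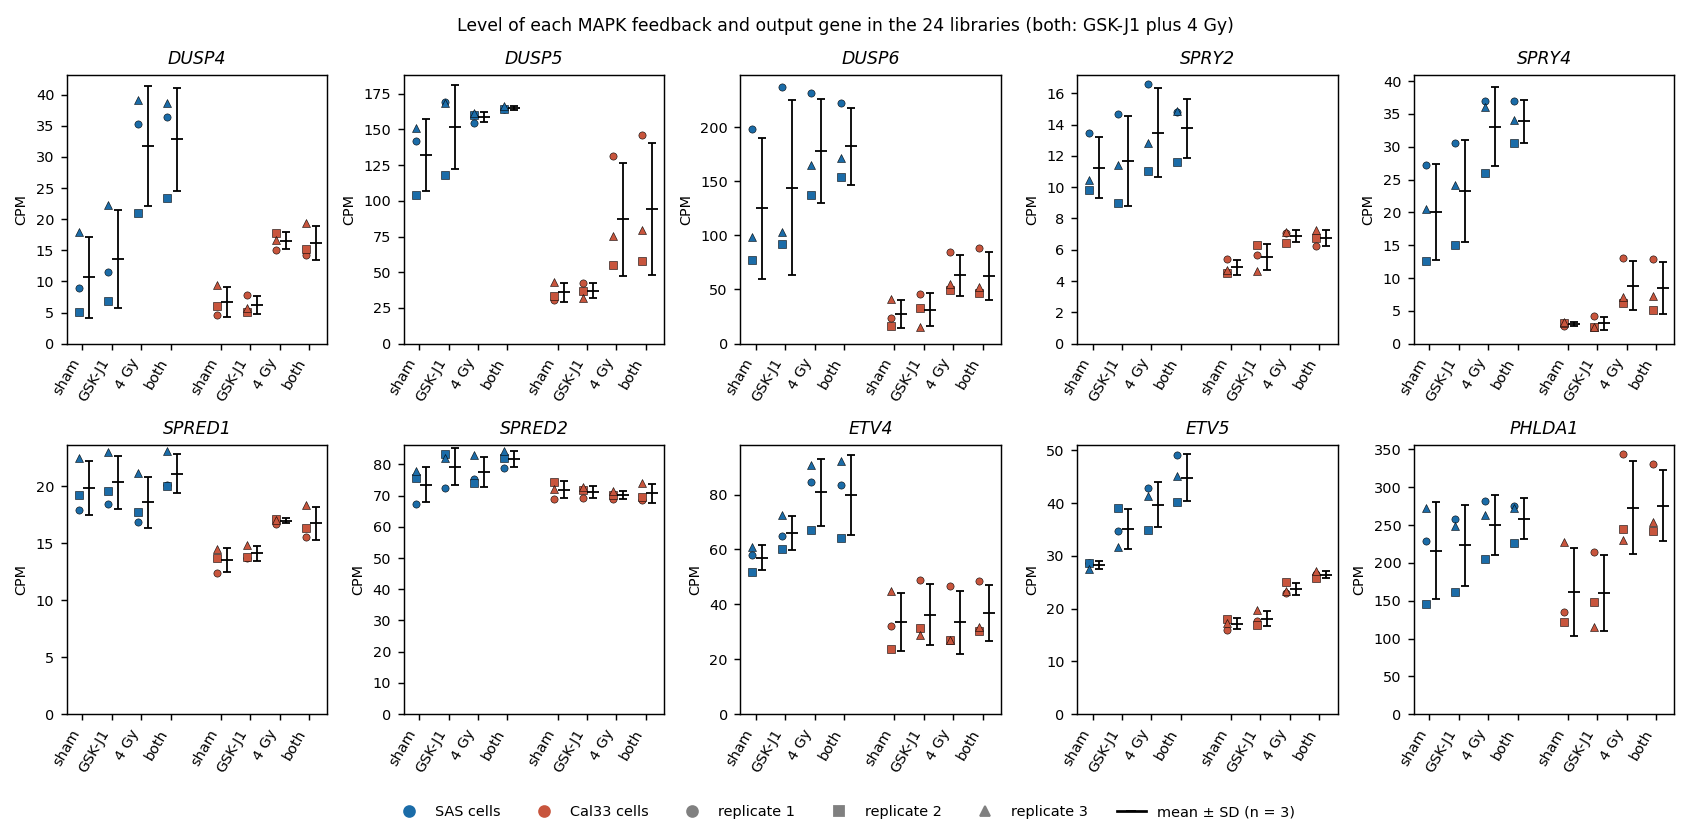
CPM of the 10 genes in the 24 libraries by line and treatment (symbols: replicate number, bars: mean ± SD, n = 3). DUSP4, DUSP5, SPRY4 and ETV5 of Cal33 lie higher in both irradiated groups than in sham and GSK-J1 cells, while SPRED2 ranges from 68.5 to 74.3 CPM in every Cal33 library.

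Other genes of the pathway were described from 3 lists. Beside their counts, 3.47% and 3.04% of all genes were called higher with irradiation in Cal33 and 3.63% and 2.43% in SAS, without and with GSK-J1. The shares called lower were 2.81% and 2.07% in Cal33 and 3.45% and 1.99% in SAS. In the cascade itself, MAP2K1, which encodes the ERK kinase MEK1, rose with irradiation in all 4 comparisons: in Cal33 by log2 0.50 ± 0.13, adjusted p = 0.0387, and with GSK-J1 by 0.51 ± 0.13, adjusted p = 0.0409, and in SAS by 0.55 ± 0.09, adjusted p = 0.00318, and with GSK-J1 by 0.40 ± 0.09, adjusted p = 0.0211. MAPK3, which encodes ERK1, fell in Cal33 (-0.43 ± 0.10, adjusted p = 0.0299, and with GSK-J1 -0.41 ± 0.10, adjusted p = 0.0382), and SOS2, a RAS exchange factor, fell in SAS after 4 Gy (-0.33 ± 0.08, adjusted p = 0.0247). These were the called genes among the 17 in each comparison, whose medians lay between 0.02 and 0.06.

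Of 14 genes listed as other inhibitors, 5 rose in Cal33 after 4 Gy and 2 with GSK-J1 in both arms, and 4 and 2 rose in SAS, with 0 called lower and medians of 0.45, 0.40, 0.23 and 0.25. DUSP8 and DUSP10 led in Cal33 and were the 2 called there with GSK-J1. Both are phosphatases of stress-activated kinases more than of ERK. They rose by log2 2.35 ± 0.35, adjusted p = 0.00392, and 1.56 ± 0.24, adjusted p = 0.00421, and with GSK-J1 by 2.45 ± 0.35, adjusted p = 0.0039, and 1.40 ± 0.24, adjusted p = 0.00732. DUSP7, an ERK phosphatase, and ERRFI1, an inhibitor of the EGF receptor, also rose after 4 Gy (0.81 ± 0.20, adjusted p = 0.032, and 0.95 ± 0.23, adjusted p = 0.0335). In SAS the risers were PEA15 (0.68 ± 0.10, adjusted p = 0.00298), which holds ERK in the cytoplasm, DUSP1 (1.04 ± 0.24, adjusted p = 0.0228), SPRED3 (0.96 ± 0.23, adjusted p = 0.0248) and DUSP10 (1.32 ± 0.34, adjusted p = 0.0342), and with GSK-J1 PEA15 (0.48 ± 0.10, adjusted p = 0.0233) and SPRED3 (1.00 ± 0.23, adjusted p = 0.0275). SPRED3 was low, at 0.649 ± 0.0895 CPM in SAS sham and 1.27 ± 0.346 CPM after 4 Gy.

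Of 12 other ERK output genes, 5 and 4 rose in Cal33 and 3 and 1 in SAS, without and with GSK-J1, with 0 called lower and medians of 0.92, 0.89, 0.49 and 0.34. PLAUR, the urokinase receptor, was called in all 4 comparisons, with log2 fold changes of 2.48 ± 0.44, adjusted p = 0.0086, and 2.49 ± 0.44, adjusted p = 0.00913 in Cal33, and 1.34 ± 0.12, adjusted p = 0.000179, and 1.24 ± 0.12, adjusted p = 0.000411 in SAS. FOSL1, an AP-1 subunit, rose in Cal33 (2.5 ± 0.35, adjusted p = 0.00311, and with GSK-J1 2.35 ± 0.35, adjusted p = 0.00457) and in SAS after 4 Gy (1.40 ± 0.33, adjusted p = 0.0262). The receptor EPHA2 and the EGF receptor ligand HBEGF rose in Cal33 (1.12 ± 0.16, adjusted p = 0.00311, and 1.78 ± 0.37, adjusted p = 0.0164, and with GSK-J1 1.15 ± 0.16, adjusted p = 0.00363, and 1.71 ± 0.37, adjusted p = 0.021), and the cytokine LIF rose in SAS (0.93 ± 0.25, adjusted p = 0.0437). With the 2 libraries that carry Cal33 transcripts left out, PLAUR was the 1 listed gene still called in SAS with GSK-J1 in both arms (adjusted p = 0.00328), while MAP2K1, PEA15 and SPRED3 were not (adjusted p = 0.171, 0.128 and 0.182), though these 3 passed with the block (0.00522, 0.00262 and 0.0378). After 4 Gy alone, DUSP10 and LIF were no longer called without a block (adjusted p = 0.0516 and 0.0668). The lists were chosen with earlier results of these data known, so their counts are a description.

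With or without irradiation, 0 of the 10 genes were called for GSK-J1 in either line (edgeR, fits without a block), and 0% of all genes tested were called in any of the 4 comparisons, GSK-J1 against sham and GSK-J1 plus 4 Gy against 4 Gy in SAS and in Cal33. At an unadjusted p under 0.05 there were 486, 438, 215 and 244 genes among all tested in the SAS and Cal33 comparisons, with 1 of the 10, ETV5 in SAS, among the first. DESeq2 called 3, 0, 0 and 0 genes, and 0 of the 10. The medians of the 10 were 0.20 and 0.05 in SAS and 0.06 and 0.00 in Cal33, beside medians within 0.02 of 0 for all genes. In the 3 pathway lists 0 genes were called.

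ETV5 in SAS had 28.6, 28.7 and 27.5 CPM in sham and 34.7, 39.0 and 31.6 CPM under GSK-J1, without overlap (0.31 ± 0.11 log2, unadjusted p = 0.0111, adjusted p = 1). All 10 genes had a positive log2 difference in SAS, from 0.03 for SPRED1 to 0.34 for DUSP4. The 95% intervals were widest for 3 genes: -0.63 to 1.31 for DUSP4, -0.61 to 1.03 for DUSP6 and -0.37 to 0.80 for SPRY4. In Cal33 the differences ran from -0.11 for DUSP4 to 0.21 for DUSP6. In irradiated cells, those of SAS ran from -0.02 for ETV4 to 0.18 for SPRED1, and those of Cal33 from -0.06 for SPRY4 to 0.16 for ETV5.

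With the replicate number as a block in a fit of the 6 SAS libraries compared, small differences passed. Under GSK-J1 against sham 5 of the 10 were called higher, where 0.755% of all genes were: DUSP4 (0.37, adjusted p = 0.00285), ETV5 (0.31, 0.00239), ETV4 (0.22, 0.0145), DUSP5 (0.20, 0.0192) and DUSP6 (0.20, 0.0389). Each of the 5 was higher under GSK-J1 in 3 of 3 pairs. In irradiated SAS cells 2 of the 10 were called higher, where 4.47% of all genes were: ETV5 (0.17, 0.00654) and SPRED1 (0.18, 0.0167). The block in the fit of all 12 libraries called 0 of the 10 in both, and 10 and 0 genes in all, and GSK-J1 replicate 1 and GSK-J1 plus 4 Gy replicate 1, the libraries with Cal33 transcripts, enter these 6-library fits. Without them, a block over the remaining 10 libraries called 0 of the 10 in both.

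**Figure D4:**
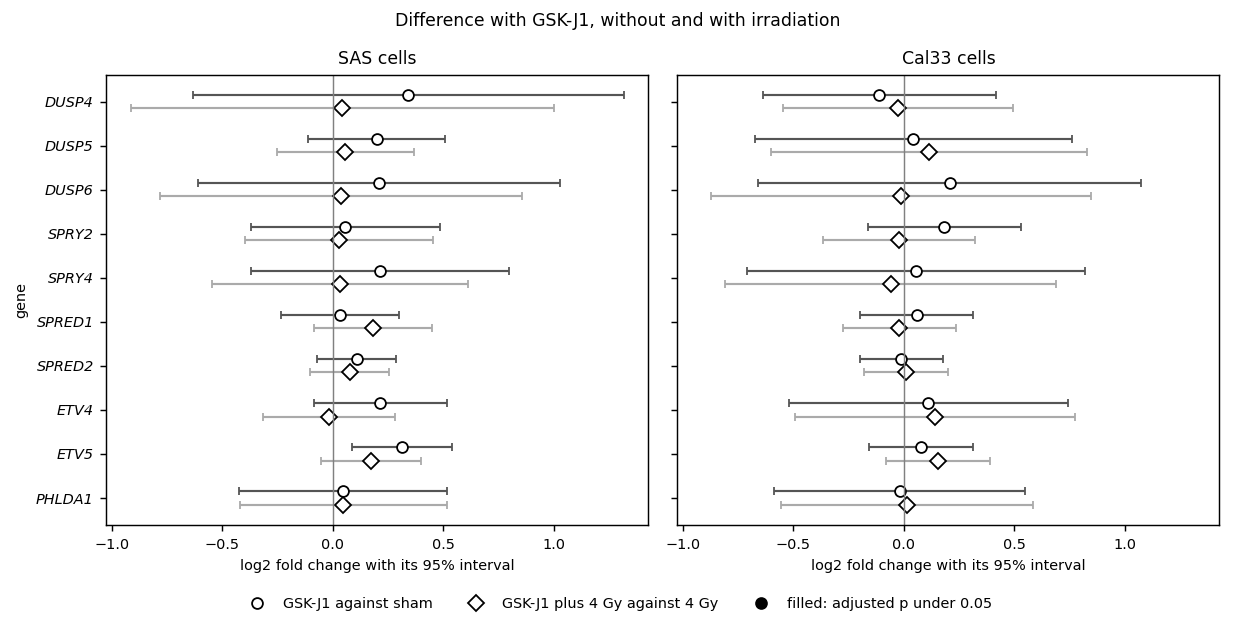
Log2 fold change with GSK-J1 for the 10 genes in SAS and Cal33, with 95% intervals from the fits without a block (circles: GSK-J1 against sham, diamonds: GSK-J1 plus 4 Gy against 4 Gy). No symbol is filled, since 0 genes passed, and ETV5 in SAS is the one whose interval, 0.08 to 0.54, lies above 0.

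The interaction of GSK-J1 and 4 Gy tests whether either treatment altered the effect of the other. In each line 0 of the 10 genes and 0% of all genes were called (399 genes in SAS and 209 in Cal33 had an unadjusted p under 0.05, with 0 of the 10 among them, and DESeq2 called 0 genes in either line). The intervals were wide: for DUSP4 the interaction was -0.30 (-1.66 to 1.06) in SAS and 0.08 (-0.66 to 0.82) in Cal33. For ETV5 it was -0.14 (-0.46 to 0.18) and 0.08 (-0.26 to 0.41). These intervals come from fits without a block, so the spread between replicate numbers enters them. In SAS, same-numbered pairs of DUSP4 differed with irradiation by log2 1.97, 2.05 and 1.13 without GSK-J1. With GSK-J1 these differences were 1.66, 1.75 and 0.797. Of the 10 interactions in SAS, 8 were negative, with a median of -0.14 beside 0.00 over all genes. In Cal33, 4 were negative (median 0.02, all genes 0.02).

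Whether irradiation acted differently on the lines was tested in the fit of 24 libraries, and 0 of the 10 genes passed, where 0.285% of all genes were called with a larger value in Cal33 and 0.142% with a smaller one. DUSP5 came closest, with a log2 fold change larger by 1.00 ± 0.39 in Cal33 (95% interval 0.18 to 1.82, unadjusted p = 0.0192, adjusted p = 0.36). SPRED1 followed at 0.40 ± 0.16 (unadjusted p = 0.0229, adjusted p = 0.383), and these were the 2 of 10 at an unadjusted p under 0.05. DESeq2 also called 0 of the 10. For DUSP4 and ETV5 the differences were -0.29 ± 0.55 and -0.04 ± 0.14, with intervals of -1.43 to 0.85 and -0.33 to 0.26. For the effect of GSK-J1, 0 of the 10 and 0% of all genes differed between the lines (394 genes and 0 of the 10 had an unadjusted p under 0.05, and DESeq2 called 1 gene, none of the 10).

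Libraries of the same replicate number resembled each other in SAS. Averaged over the 10 genes, each centred within its line on the log2 scale, SAS replicate 2 was the lowest library of every treatment, at -0.62 in sham, -0.42 under GSK-J1, -0.05 after 4 Gy and 0.07 after both. SAS replicates 1 and 3 lay close together, at -0.15 and -0.14 in sham, 0.04 and -0.0059 under GSK-J1, 0.31 and 0.28 after 4 Gy, and 0.345 and 0.338 after both. Each number followed the same order over the treatments, from sham through GSK-J1 and 4 Gy to both.

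In Cal33, replicate 1 was highest under GSK-J1 (-0.07), after 4 Gy (0.60) and after both (0.60), but in sham replicate 3 was highest, at -0.11 against -0.52 and -0.54. All 6 irradiated Cal33 libraries lay above 0 and all 6 unirradiated ones below it. What distinguished the numbered replicates was not given in the sources used here.

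**Figure D5:**
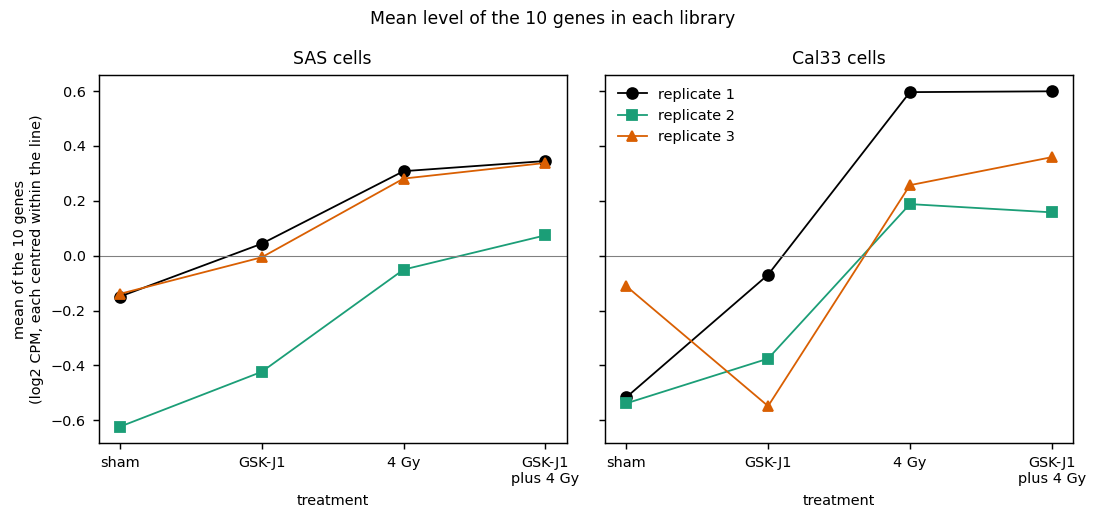
Mean of the 10 genes in each library (log2 CPM, each gene centred within the line) by treatment, with lines joining libraries of the same replicate number. SAS replicate 2 runs below the others throughout, and in Cal33 the highest sham library is replicate 3 while replicate 1 is highest in the other groups.

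How the members varied together within treatments is given as a description. Over the 45 pairs of genes, the correlation of deviations from the group means over 12 libraries had a median of 0.378 in SAS, with 33 above 0, and 0.088 in Cal33, with 24 above 0. SPRY2 and DUSP6 (r = 0.896) and DUSP4 and PHLDA1 (r = 0.892) went together in SAS, and DUSP6 and PHLDA1 (r = 0.945) and ETV4 and PHLDA1 (r = 0.944) in Cal33. SPRED2 and DUSP6 were opposed in SAS (r = -0.785), and SPRY2 and ETV5 in Cal33 (r = -0.855). The points are libraries that share their cell line, so no p is given.

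The genes outside the set whose log2 CPM followed its mean most closely over the 12 libraries of a line are listed for each line. In SAS these were FUT4 (r = 0.985), EPHA2 (0.973), YRDC (0.972), ADAMTS1 (0.971) and TSPAN5 (0.967), out of 17299 genes with a mean of at least 10 counts. In Cal33 they were TNFSF18 (r = 0.994), CD55 (0.993), MICAL2 (0.990), CD44 (0.987) and LY6K (0.987), out of 17989. Treatment and replicate number both contribute to these values. The r of these genes in the other line is not given, so the lists do not show a difference between the lines. Among the 6 unirradiated libraries alone, r was 0.993 for FUT4 in SAS and 0.978 for TNFSF18 in Cal33, and among the 6 irradiated ones 0.921 and 0.984.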

How the data were processed

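RNA-seq of SAS and Cal33 cells was deposited as 1 table of counts per library. The authors sequenced stranded total RNA libraries, aligned reads to hs37d5 with STAR 2.5.3a, handled alignments with SAMtools 1.6 and counted reads per gene with featureCounts of Subread 1.5.1, and the deposited counts on the strand of the gene are not normalised. CPM, computed here, are counts scaled to a common library size. Levels per length divide by the exonic length given in the same tables. How multimapping reads were treated was not given in the sources used here.

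Counts were scaled by TMM and tested with edgeR 4.0.16 (R 4.3.3, limma 3.58.1) by the quasi-likelihood test with Benjamini-Hochberg adjustment over every gene that averaged 1 count or more in the libraries fitted, with adjusted p under 0.05 as the threshold. Each line was fitted with its 12 libraries, which share 1 estimate of the spread, and contrasts between lines used all 24. Depth was 54200036 to 96848227 counts. The share of counting error in the spread between replicates was not tested and need not be small for every gene. For SPRED1 in Cal33 after 4 Gy, the SD was 1.23% of the mean, with a lowest count of 1209. The tests were also run on simulated counts, drawn independently for each library. These lack the pairing seen in SAS, so that check does not cover it.

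Replicate numbers come from the labels, which do not say what a number stands for. Deviations of same-numbered libraries from their group means correlated at 0.249 or more between all SAS groups and at 0.175 or more among Cal33 GSK-J1, 4 Gy and GSK-J1 plus 4 Gy libraries, but as low as -0.522 with Cal33 sham. Numbers were therefore taken to pair libraries in the former.

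Alternatives were DESeq2 1.42.0, its size factors in edgeR, other filters on low counts, counts without regard to strand, replicate blocks, fits of the 6 libraries compared, other thresholds, and leaving out each library or both SAS libraries with Cal33 transcripts. Of these, DESeq2 with a block, the block without those libraries, SAS 4 Gy against sham without them and the pathway lists without them were added after seeing the data. All 10 genes are named, and of each of 3 pathway lists at most 4 called genes per comparison with the smallest p. The members and lists were chosen with earlier results of these data known. Some genes that this rule or the marker lists name are not reported here.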

Additional observations from a re-analysis of the deposited data

How the results depend on the processing

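No direction reversed: over 17 called values of the 10 genes, 279 values under the alternatives held 229 that stayed past the threshold, 50 that did not and 0 that reversed. All 50 fell on irradiation comparisons, most often on ETV5 in Cal33 after 4 Gy (9 of 17 settings). The 7 genes called between the lines in sham lost no call in 15 settings each. Other thresholds reuse the main fold changes, so no direction could reverse there, and at 0.1 no call could be lost. Counts of called members moved more. Calls over all genes moved too, so a member count without a count of all genes beside it does not describe the members alone. For SAS 4 Gy against sham (2 called; 1658 genes in all) they were 0 at a threshold of 0.01, 4 with DESeq2 (2845 genes) and without a filter on low counts, 6 with the replicate block (5734 genes), 8 with DESeq2 and the block, 1 with the 6 libraries compared (897 genes), 5 with these and the block, and, with both libraries that carry Cal33 transcripts left out, 1 and with the block 5. For SAS GSK-J1 plus 4 Gy against GSK-J1 (0 called; 1036 genes) they were 1 at a threshold of 0.1, with DESeq2 (2220 genes) and without a filter, 5 with the block (5029 genes) and with DESeq2 and the block, 6 with the block and 6 libraries, and 4 with the block and those 2 libraries left out, where the fit without a block called 97 genes. The block with 6 libraries gave 5 for SAS GSK-J1 against sham (596 genes against 0) and 2 for SAS GSK-J1 plus 4 Gy against 4 Gy (1903 against 0). For Cal33 4 Gy against sham (4 called; 1528 genes) counts were 0 at 0.01 and 7 with DESeq2 (2678 genes) with and without the block, and for Cal33 GSK-J1 plus 4 Gy against GSK-J1 (4 called; 1245 genes) 1 at 0.01, with 2464 genes by DESeq2 and 4494 with the block and 6 libraries. The block in the fit of 12 libraries left 4 and 4 called in Cal33, where the sham numbers do not pair. The cause of these changes was not tested.

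Leaving out 1 library at a time gave 0 to 2 called members for SAS 4 Gy against sham (0 without 4 Gy replicate 1 or 3, 1 without sham replicate 1 or 2), 0 to 1 for SAS GSK-J1 plus 4 Gy against GSK-J1 (DUSP4 without GSK-J1 replicate 3), and 1 to 3 for Cal33 4 Gy against sham (DUSP4 alone without 4 Gy replicate 1 or 3 or sham replicate 1, 2 without sham replicate 2 or 3). For Cal33 GSK-J1 plus 4 Gy against GSK-J1 the range was 0 to 4 (0 without GSK-J1 replicate 2, 1 without GSK-J1 plus 4 Gy replicate 3, 2 without its replicate 1 or GSK-J1 replicate 1 or 3), and for the lines in sham 7 to 9. In the same order of comparisons, these fits called 587 to 1880, 330 to 914, 427 to 1210, 254 to 1342 and 12169 to 12783 of all genes. Every alternative gave 7 to 10 members for the lines in sham and 0 for the interactions and the differences between lines, whose genome-wide count for 4 Gy was 105, 631 with the block, 432 with DESeq2 and 284 without a filter. With 3 libraries a group, a missed threshold does not show that a gene did not change.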
